A study of Mus musculus with 9 samples.

Results

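The 193 solute carrier (SLC) genes described here were the rows of the count table whose symbol begins with Slc and a number and whose reads summed to at least 300 over the 9 libraries. They were drawn from 379 matching symbols among 50508 genes. Another 178 matching genes lay under that total, 74 of them with no read at all, and 8 were left out by name (Slc11a1, Slc40a1, Slc48a1, Slc4a1, Slc1a3, Slc2a1, Slc2a3 and Slc2a6). At the boundary, Slc13a2 (297 reads), Slc26a1 (271) and Slc18a1 (264) fell just outside, and Slc25a27 (311), Slc22a4 (323) and Slc25a31 (326) just inside. A total of this size can be reached through 1 population alone, so the counts of members below are descriptions of a chosen set. All 193 passed the filter on low counts and were tested among 14708 genes. Among them, 6 are named after a solute carrier but encode no transporter (Slc2a4rg-ps, Slc36a3os, Slc4a1ap, Slc7a6os, Slc9a3r1 and Slc9a3r2), and they were kept as a class of their own.

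Solute carriers are membrane proteins that move amino acids, sugars, nucleosides, metals, ions, vitamins and metabolites into and out of cells and organelles. Families are grouped by sequence, and substrates of many members are known: SLC1, SLC7 and SLC38 carry amino acids, SLC16 carries monocarboxylates, SLC25 sits in the inner mitochondrial membrane and SLC35 supplies nucleotide sugars to the Golgi and endoplasmic reticulum. In the spleen, macrophages of the red pulp take up aged red cells and recycle their iron and other contents, while lymphocytes import amino acids for growth after activation.

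RNA was sequenced from 3 populations sorted from spleens: conventional T cells (T), conventional dendritic cells (DC) and the cells that the submitters call TDC, with T and DC as controls. Every library came from untreated, naive mice aged 8 weeks and homozygous for Zbtb46-GFP, an allele that puts green fluorescent protein under control of a gene used by conventional dendritic cells, so the controls carried the allele too. There were 3 libraries per population, pooled from 5 mice for replicate 1 and from 6 mice each for replicates 2 and 3. The labels list RPMI medium with serum under growth, and no source used here gives the sorting gates. Same-numbered libraries of the 3 populations share a prefix in the sample descriptions and their number of pooled mice, but the labels do not state that they came from the same mice, and p-values cover only the variation from pool to pool.

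Levels are given as CPM (reads of a gene scaled to a common library total) after TMM normalisation, and reads come from the 3' end of transcripts, so a gene's level depends little on its length. A call means an adjusted p under 0.05 in edgeR (quasi-likelihood test, adjusted by Benjamini and Hochberg's method across the 14708 genes tested), and every adjusted p below is of that kind unless another fit is named. Alternative fits in which a call ended or was gained are named for many comparisons but not for all. A comparison without such a fit named may therefore still have changed in one. A replicate block means the replicate number added as a term. Libraries held 10986544 to 25676640 reads. Folds are ratios of mean CPM unless called pooled, while log2 values and their SE come from the fit, and they can differ. Where a group had no read, folds are lower bounds computed against 3 reads over the group (0.0557 CPM in T, 0.0524 in DC and 0.0706 in TDC), and such bounds and the intervals for ratios against 1 to 3 reads cover counting error only. Because sorted populations were compared in bulk, fewer cells of a type and less RNA per cell cannot be told apart.

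The labels were set against markers fixed for 6 cell types. Summed over 10 T cell genes, T libraries held 6803 to 9242 CPM and TDC libraries 83.4 to 269, against 59.8 to 107 in DC, where Cd3e and Cd3g had no read. The DC sum was mostly Tcf7 (33.7 to 85.8 CPM), which overlapped TDC, and Cd5 (19.6 to 26.4 CPM), which was lower in TDC. Every other gene of the list was higher in each TDC library than in any DC library. Lat, for example, was at 32.7, 11.9 and 36.8 CPM in TDC and at most 0.139 in DC. Summed over 10 conventional DC genes, DC libraries held 20844 to 39372 CPM, TDC libraries 2276 to 5012 and T libraries 6.26 to 11.1, with Clec9a, Cd209a and Kmo at 0 in T. Genes of red pulp macrophages, 10 in number, summed to 39536 to 74708 CPM in TDC, 659.9 to 1006 in DC and 9.43 to 11.4 in T (Adgre1, C1qc and Cd5l at 0), and 9 erythroid genes to 603 to 2086 CPM in TDC, at most 23.5 in DC and at most 1.62 in T. Neither list had a member at 0 in TDC. B cell genes (8) summed to 74.3 to 130 CPM in TDC, with Pax5 at 0, to 207 to 287 in DC and to 14.8 to 34.7 in T. Neutrophil and platelet genes (9) summed to 12.5 to 81.8 CPM in TDC, with Ly6g, Camp and Ltf at 0. Their sum was at most 5.17 CPM in a DC library and at most 1.76 in a T library. The macrophage and erythroid levels moved with each contrast of TDC described below, and their part in the results was not tested.

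The solute carrier genes together made up 0.956% to 1.29% of the reads in TDC libraries, 0.782% to 1.02% in DC and 0.768% to 0.888% in T. Their summed level was 13986 ± 1995 CPM in TDC, 9191 ± 273 in DC and 6817 ± 71.0 in T (SD, n = 3). The number of members at 10 CPM followed the same order: 136 to 150 members reached it in a TDC library, 108 to 131 in a DC library and 93 to 105 in a T library. These levels and counts, and the class sums below, depend on the TMM factors (0.727 to 0.921 in TDC, 0.873 to 1.12 in DC and 1.12 to 1.30 in T). By share of reads, the TDC and DC libraries overlapped. Every member had at least 1 read in TDC, whereas 11 had none in T and 3 had none in DC (Slc16a5, Slc1a2 and Slc6a19). The same counts over all genes are not set beside these, so they describe the chosen members only.

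In TDC against T, 74 members were higher and 13 lower, which is 38.3% and 6.74% of the members beside 21.8% and 11.2% of all genes tested. Against DC, TDC had 40 members higher and 13 lower (20.7% and 6.74%), beside 9.55% and 4.6% of all genes. In DC against T, 51 members were higher and 13 lower (26.4% and 6.74%), beside 15.4% and 8.41% of all genes. The median log2 fold change over the members was 1.13, 0.65 and 0.46 in these comparisons, and over all genes 0.14, 0.01 and 0.08. Of the calls, 63 of 87, 28 of 53 and 39 of 64 held without each of the 9 libraries in turn. Leaving out TDC replicate 2 brought the higher and lower calls against DC to 23 and 5, leaving out DC replicate 1 or TDC replicate 1 brought the lower ones to 7. They came to 8 without DC replicate 3 or TDC replicate 3 and to 6 with the replicate block. Leaving out DC replicate 1 brought the higher calls of DC against T to 33. With scaling by library size alone the splits were 60 higher and 23 lower, 30 and 17, and 39 and 19, where the median of all genes moved by -0.60, -0.30 and -0.30 (log2), and with limma-voom DC against T split 46 to 20. The first 2 comparisons share the TDC libraries, and each control enters 2 of them.

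**Figure D1:**
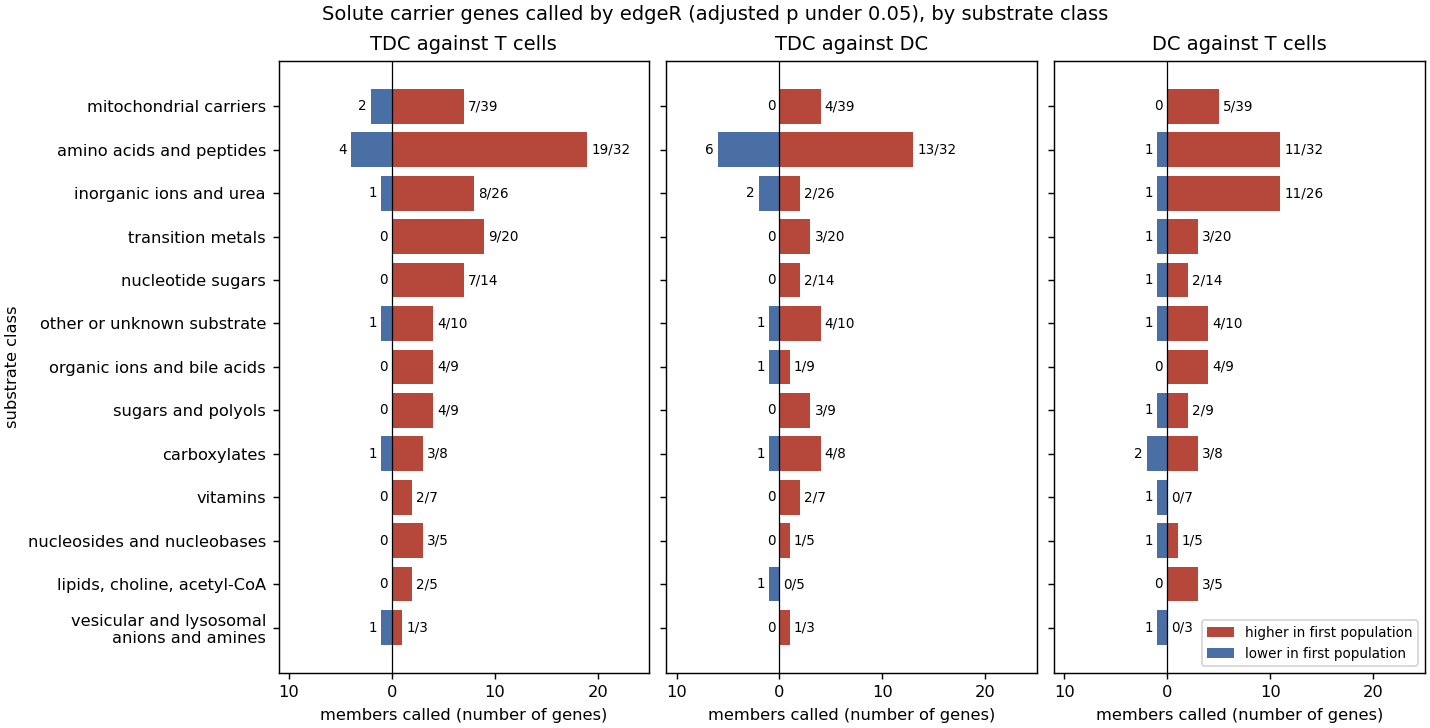
Solute carrier genes called higher (red, to the right) or lower (blue, to the left) in the first-named population, counted by substrate class for each of the 3 comparisons; numbers give genes called over members of the class. Amino acid and peptide carriers had the most calls by number against either control, with 19 of 32 higher in TDC than in T and 13 of 32 higher than in DC.

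Both calls together placed 34 members above both controls, 17.6% of them beside 7.06% of all genes, and 3 below both beside 1.69%. In 19 of the 34 both calls held without each library in turn. Those were Slc45a3, Slc16a9, Slc7a8, Slc7a2, Slc1a2, Slc16a10, Slc7a7, Slc37a2, Slc29a1, Slc16a6, Slc35f6, Slc38a7, Slc43a2, Slc15a2, Slc25a33, Slc2a8, Slc35a1, Slc35b2 and Slc9a9. Leaving out TDC replicate 2 brought the members above both to 19 and leaving out any other library to between 24 and 33. Of the 193, 79 had no call in any comparison, of which 31 passed in some comparison under at least 1 alternative. The share of all genes without any call is not set beside the 79.

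Promoter sequence was available for members through RefSeq (GRCm38.p6), and 3 of the genes above both controls are shown because their products sit at different sites, at the plasma membrane, in the endoplasmic reticulum and in the lysosome, and rose together. Each run gives the 250 bases before the annotated start, 5′ to 3′ on the gene's strand, all 3 on the minus strand. Capitals mark GAGGAA or its reverse complement, a core of sites for PU.1, a factor of myeloid cells, and the palindrome CACGTG, an E-box of the kind found in lysosomal genes.
Slc37a2 (chr9:37255739-37255988): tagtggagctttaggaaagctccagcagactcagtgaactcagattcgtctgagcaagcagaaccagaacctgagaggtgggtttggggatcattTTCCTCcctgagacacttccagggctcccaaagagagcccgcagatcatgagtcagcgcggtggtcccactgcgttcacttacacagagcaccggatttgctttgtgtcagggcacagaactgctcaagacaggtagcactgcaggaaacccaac
Slc7a8 (chr14:54781887-54782136): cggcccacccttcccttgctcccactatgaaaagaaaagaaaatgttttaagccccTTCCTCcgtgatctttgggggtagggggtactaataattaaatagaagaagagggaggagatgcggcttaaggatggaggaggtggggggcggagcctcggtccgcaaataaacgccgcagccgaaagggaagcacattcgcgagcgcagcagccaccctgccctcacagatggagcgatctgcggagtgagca
Slc38a7 (chr8:95853492-95853741): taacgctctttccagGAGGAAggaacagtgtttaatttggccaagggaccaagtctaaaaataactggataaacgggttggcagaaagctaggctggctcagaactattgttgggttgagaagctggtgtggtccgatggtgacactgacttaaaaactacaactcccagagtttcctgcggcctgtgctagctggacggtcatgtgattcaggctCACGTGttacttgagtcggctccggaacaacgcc
In these runs the PU.1 core began 155, 194 and 235 bases before the start of Slc37a2, Slc7a8 and Slc38a7, and the E-box of Slc38a7 began 34 bases before it. Windows running from 250 bases before to 50 after a start were at hand for 147 members, and for 26 of the 34 above both controls, with 42 windows. Read on both strands, the PU.1 core lay in 31.0% of those 42 windows, 21.6% of the members' windows and 28.3% of all 32851. The E-box lay in 11.9%, 14.1% and 7.15%. By gene, the PU.1 core was found in 10 and the E-box in 5 of those 26, so the 3 runs shown, which all hold the PU.1 core, are not typical of the group. TGTGGT, the core of RUNX sites, lay in 19.0%, 12.6% and 16.8%, and the core of the antioxidant response element (TGAC and GC with any 3 bases between) in 21.4%, 19.6% and 12.4%. None of the 4 motifs contains another, a stretch shared by 2 was counted for each, and these matches describe the letters only.

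Amino acid and peptide carriers had the most calls by number of any class in TDC against T and against DC. Of the class, 71.9% were called against T and 59.4% against DC, beside 33% and 14.1% of all genes. As a share, carboxylate carriers were called more often against DC (62.5%). Of 32 members, 19 rose and 4 fell in TDC against T, and 13 rose and 6 fell against DC, of which 16, 4, 9 and 3 held without each library in turn. Their summed level was 3095 ± 489 CPM in TDC, 2170 ± 265 in DC and 1316 ± 134 in T (SD, n = 3), and the TDC libraries (2802 to 3659) lay above those of both controls. Leaving out TDC replicate 2 brought the 6 falls against DC to 3. Members went both ways, with 12 above both controls and 3 below both.

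Several genes of family SLC7 rose. Slc7a8 encodes LAT2, an exchanger of small and large neutral amino acids. It was at 96.8, 345 and 164 CPM in the TDC libraries, at 2.83, 0.279 and 0.417 CPM in DC and at 0, 0.395 and 0 CPM in T. Each TDC library lay far above every control library, by 1532-fold against T (log2 10.38, SE 1.34, adjusted p = 0.000256) and 172-fold against DC (log2 7.34, SE 1.13, adjusted p = 0.00228). Slc7a7, which encodes the cationic and neutral amino acid exchanger y+LAT1, stood at 491, 434 and 355 CPM in TDC, 58.9, 38.1 and 41.0 CPM in DC and 0.985, 0.494 and 0 CPM in T. The 3 populations did not overlap, with TDC 9.27-fold above DC (log2 3.21, SE 0.64, adjusted p = 0.00831) and DC 93.3-fold above T (log2 6.59, SE 0.80, adjusted p = 0.000202). Slc7a2, the arginine and lysine transporter CAT2, had 25.5, 76.2 and 32.0 CPM in TDC, a single read in T and 0, 0 and 0.358 CPM in DC. The pooled TDC level was 2637 times that of T (95% interval of the count ratio 473 to 104211, adjusted p = 0.000273) and the mean one 374 times that of DC (log2 8.55, SE 1.21, adjusted p = 0.00151).

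Slc3a2 encodes CD98, the heavy chain that carries LAT2 and y+LAT1 to the cell surface. Its libraries overlapped between TDC (952, 718 and 589 CPM) and DC (366, 1083 and 441 CPM), and although the TDC libraries lay above those of T (353, 375 and 305 CPM) the difference did not pass (log2 1.13, SE 0.42, adjusted p = 0.0608). It passed without DC replicate 2, with no filter, with the DESeq2 Wald test, with limma-voom or in the fit of the 2 groups alone (adjusted p 0.00899 to 0.0412). The other light chains went separate ways. Slc7a5, or LAT1, was between 2.06 and 41.4 CPM in every library and was not called in any comparison, except in DC against T without DC replicate 2 or TDC replicate 1 or with the DESeq2 Wald test (adjusted p 0.0396 to 0.0475). Slc7a6, which encodes y+LAT2, was at 7.72, 10.5 and 11.3 CPM in TDC against 30.2, 24.5 and 53.7 CPM in DC and 44.6, 38.3 and 29.5 CPM in T. All TDC libraries were below all control libraries, 3.80-fold under T (log2 -1.92, SE 0.41, adjusted p = 0.00461) and 3.66-fold under DC (log2 -1.87, SE 0.41, adjusted p = 0.0117), while DC and T overlapped. Slc7a11, the cystine importer, was lowest in T, with 2 reads in all, and the pooled ratio to T was 551 for DC (152 to 4559, adjusted p = 0.000652) and 149 for TDC (40.8 to 1237, adjusted p = 0.00189).

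Slc1a5, the second most abundant member in T by share of reads, fell. It encodes ASCT2, a main importer of glutamine and other small neutral amino acids. T libraries held 463, 253 and 501 CPM, DC libraries 259, 233 and 321 CPM and TDC libraries 33.7, 17.8 and 77.4 CPM. TDC lay below every control library, 9.44-fold under T (log2 -3.24, SE 0.53, adjusted p = 0.00116) and 6.30-fold under DC (log2 -2.66, SE 0.52, adjusted p = 0.00731). Another glutamine and alanine importer, Slc38a2, was at 33.9, 98.9 and 112 CPM in TDC, 268, 279.8 and 351 CPM in DC and 226, 209 and 127 CPM in T. It fell 3.67-fold against DC (adjusted p = 0.0182). That call ended without TDC replicate 2 (adjusted p = 0.0509), and it was not called against T (adjusted p = 0.0567). It passed with scaling by library size alone, with no filter, with the 10 CPM filter, with the DESeq2 Wald test or with limma-voom (adjusted p 0.0165 to 0.0432). Slc38a1 rose in DC against T by 2.45-fold (log2 1.29, SE 0.26, adjusted p = 0.00438) and was not called in TDC against either, but it passed as lower than DC with scaling by library size alone, with the 10 CPM filter, with the DESeq2 Wald test or with limma-voom (adjusted p 0.00963 to 0.0388). Slc7a1, the cationic amino acid transporter CAT1, fell 3.97-fold in TDC against T (log2 -1.99, SE 0.47, adjusted p = 0.00819). Its call against DC (adjusted p = 0.0465) ended without T replicates 1, 2 or 3, DC replicates 1 or 3 or TDC replicates 1, 2 or 3, with no filter, in the fit of the 2 groups alone or with the replicate block (adjusted p 0.0656 to 0.149).

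Slc1a2 and Slc16a10 were read almost entirely in TDC. Slc1a2, which encodes GLT-1, the main glutamate transporter of astrocytes, had 34.2, 31.9 and 53.9 CPM in TDC, 1 read over the T libraries and none in DC. TDC was at least 763-fold above DC (adjusted p = 0.000297) and 2126 times T as a ratio of pooled counts (381 to 84030, adjusted p = 6.70e-05). Slc16a10, the aromatic amino acid transporter TAT1, had 70.6, 74.3 and 31.7 CPM in TDC and at most 1.33 CPM in any control library. It was 90.9-fold above T (log2 6.47, SE 1.13, adjusted p = 0.00170) and 288-fold above DC (log2 7.91, SE 1.23, adjusted p = 0.00234). Slc43a2, or LAT4, an efflux route for branched-chain amino acids, rose in steps, at 11.4, 12.1 and 8.60 CPM in T, 50.5, 23.5 and 61.1 CPM in DC and 148, 477 and 200.01 CPM in TDC. TDC stood 6.10-fold above DC (log2 2.61, SE 0.51, adjusted p = 0.00715), and the step from T to DC (adjusted p = 0.0123) ended without T replicate 3 (adjusted p = 0.0546).

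The taurine transporter Slc6a6 rose in steps from T to DC to TDC. Its level was 65.2, 55.5 and 66.7 CPM in T, 158, 139 and 177 CPM in DC and 315, 407 and 422 CPM in TDC, 3 ranges without overlap. TDC was 6.11-fold above T (log2 2.61, SE 0.28, adjusted p = 7.54e-05) and 2.42-fold above DC (log2 1.27, SE 0.27, adjusted p = 0.00997). The latter call ended without TDC replicate 2 or with scaling by library size alone (adjusted p 0.0537 to 0.0628). Related genes of family SLC6 each followed another pattern. Slc6a12, the betaine and GABA transporter BGT1, was highest in DC at 32.2, 35.5 and 79.5 CPM, was at 2.06, 2.12 and 6.41 CPM in TDC and had no read in T. DC was at least 881-fold above T (adjusted p = 0.000120) and TDC 13.9-fold below DC (log2 -3.79, SE 0.68, adjusted p = 0.00764). Slc6a13, or GAT2, was likewise highest in DC (14.1, 35.1 and 12.0 CPM) with no read in T and 0, 0.223 and 1.94 CPM in TDC. Its 2 calls in TDC did not hold: that against DC (adjusted p = 0.0472) ended without T replicate 1, DC replicates 1 or 2 or TDC replicates 1 or 2, with scaling by library size alone or with the replicate block (adjusted p 0.0501 to 0.149), and that against T, where the ranges overlapped (adjusted p = 0.0344), ended without T replicates 1, 2 or 3, DC replicate 1 or TDC replicate 3, with limma-voom or with the replicate block (adjusted p 0.0513 to 0.122).

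Slc6a19 encodes B0AT1, the neutral amino acid transporter best known from the gut and kidney, and its highest level here was in T. It was at 48.3, 24.99 and 32.1 CPM in T, at 0, 0.279 and 1.34 CPM in TDC and without a read in DC. T was at least 671-fold above DC (adjusted p = 0.00100) and 65.1-fold above TDC (log2 -6.00, SE 1.12, adjusted p = 0.00413). TDC was also called above DC (adjusted p = 0.0488). That call ended without any T or DC library, without TDC replicates 2 or 3, with scaling by library size alone, with limma-voom or with the replicate block (adjusted p 0.0674 to 0.138). Slc6a20a, a proline transporter gene with a near copy in Slc6a20b, so that reads may be split, was called in TDC against T (adjusted p = 0.00324) on levels of 1.26, 3.68 and 18.9 CPM.

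Slc38a7, a lysosomal exporter of glutamine, was at 32.8, 84.5 and 38.7 CPM in TDC, 7.35, 2.44 and 4.89 CPM in DC and 4.29, 4.59 and 3.97 CPM in T. It lay above every control library, 12.1-fold against T (log2 3.60, SE 0.55, adjusted p = 0.000775) and 10.6-fold against DC (log2 3.40, SE 0.55, adjusted p = 0.00277), while the controls overlapped. Slc38a9, the lysosomal arginine sensor of the mTORC1 pathway, ranged over all libraries from 17.2 to 42.9 CPM and was not called in TDC against either control (adjusted p = 0.109 and 0.507). The histidine and peptide carriers Slc15a3 and Slc15a4 of endolysosomes both rose in TDC against T. Slc15a4 stood at 111, 191 and 184 CPM in TDC and 195, 99.9 and 167 CPM in DC, which overlapped, and at 20.05, 19.2 and 14.8 CPM in T, 9.003-fold lower than TDC (log2 3.17, SE 0.37, adjusted p = 0.000135). Slc15a3 stood at 84.9, 60.3 and 54.2 CPM in TDC, 10.6, 10.7 and 14.1 CPM in DC and 0, 2.32 and 0 CPM in T. Its rise against T was 85.9-fold (log2 6.36, SE 1.29, adjusted p = 0.00381), and its 5.64-fold difference from DC did not pass (log2 2.49, SE 1.06, adjusted p = 0.153). It passed without T replicate 2, with limma-voom or in the fit of the 2 groups alone (adjusted p 0.00460 to 0.00731). At the cell surface, the di- and tripeptide importer Slc15a2 was at 80.1, 59.9 and 35.9 CPM in TDC, above every library of T (4.36, 9.93 and 8.81 CPM) and DC (2.03, 3.14 and 4.11 CPM), by 7.61-fold (log2 2.92, SE 0.50, adjusted p = 0.00141) and 19.0-fold (log2 4.25, SE 0.53, adjusted p = 0.000840).

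Calls against T for Slc36a4 and Slc7a4 ended without TDC replicate 2 (adjusted p = 0.0714) and without T replicates 1 or 2 or TDC replicates 2 or 3 (adjusted p 0.0631 to 0.0823), respectively, while Slc7a4 kept its call against DC, where TDC held 22.9, 21.3 and 23.4 CPM and DC at most 0.689 CPM (log2 6.43, SE 1.25, adjusted p = 0.00731). Slc38a6 rose 5.99-fold against T (log2 2.58, SE 0.57, adjusted p = 0.00628). Against DC its call ended without T replicate 1, DC replicates 1 or 2 or TDC replicates 1, 2 or 3, with scaling by library size alone or with the replicate block (adjusted p 0.0530 to 0.116). Of the class, 6 members had no call in any comparison: Slc1a4, the lysosomal carrier Slc36a1, Slc38a10, Slc3a2, Slc43a1 and Slc7a5. Each of the 6 passed in at least 1 comparison with the DESeq2 Wald test.

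**Figure D2:**
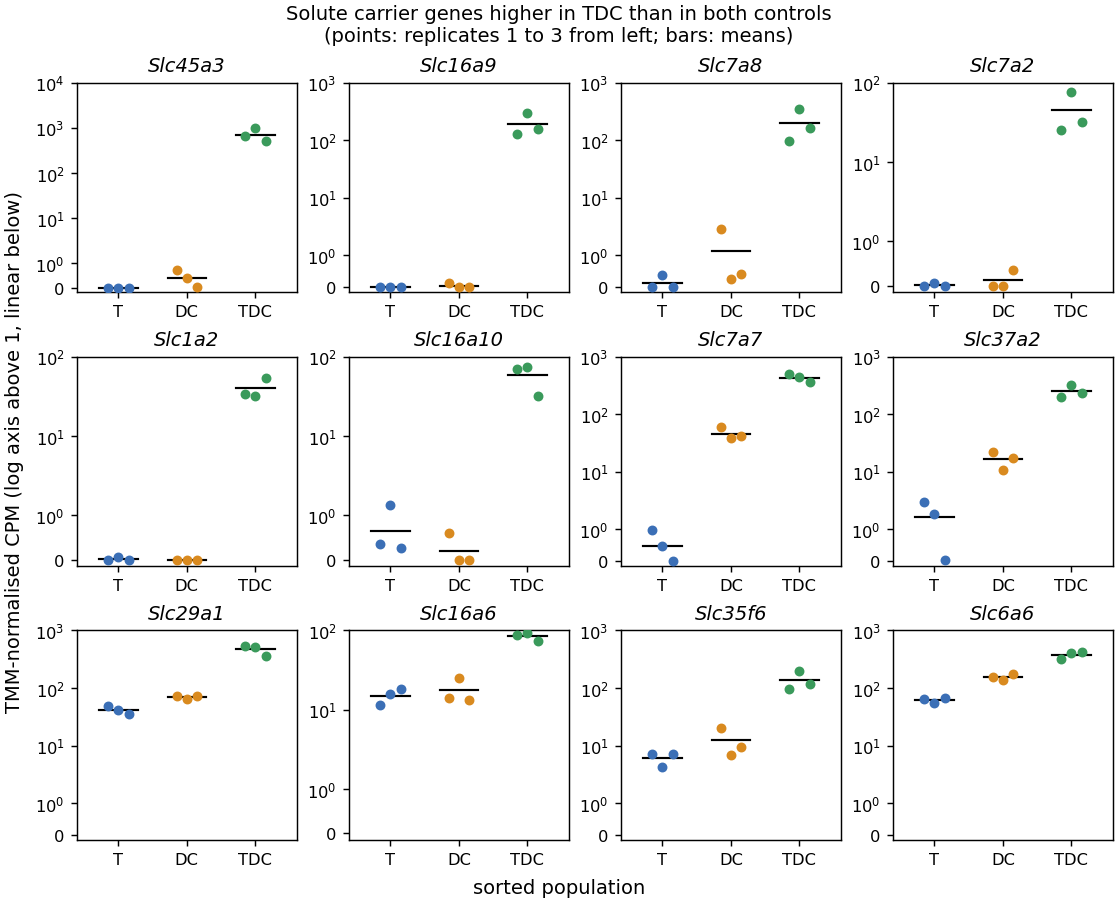
Level of 12 solute carrier genes called higher in TDC than in both controls; each point is a library (replicates 1 to 3 from left), bars are means of 3, and the CPM axis is logarithmic above 1 and linear below. The TDC points lie above all T and DC points in every panel, from Slc45a3, with 498 to 967 CPM in TDC and at most 0.727 in a control, to Slc6a6, with 315 to 422 CPM against at most 177.

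Carboxylate carriers also went both ways. Of 8, 3 rose and 1 fell in TDC against T, and 4 rose and 1 fell against DC, of which 3, 1, 3 and 0 held without each library in turn. Calls covered 50% of the class against T and 62.5% against DC, beside 33% and 14.1% of all genes. Their summed level was 369 ± 103 CPM in TDC, 47.6 ± 11.3 in DC and 94.9 ± 11.7 in T (SD, n = 3). Slc16a9, which encodes MCT9, reported to carry carnitine and related metabolites, accounted for much of that sum. It was at 127, 291 and 159 CPM in TDC, had 4 reads in 1 DC library and had none in T. TDC was at least 3455-fold above T (adjusted p = 3.58e-05). As a ratio of mean levels it was 3769.8-fold above DC (fitted log2 11.35, SE 0.89, adjusted p = 0.000268). Slc16a6, or MCT7, a ketone body carrier, rose less far from a higher base, at 87.1, 92.6 and 73.6 CPM in TDC, 14.2, 25.6 and 13.3 CPM in DC and 11.5, 15.7 and 18.2 CPM in T. The TDC range was clear of both controls, by 5.59-fold (log2 2.48, SE 0.38, adjusted p = 0.000659) and 4.77-fold (log2 2.26, SE 0.37, adjusted p = 0.00296).

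Slc16a7, which encodes the pyruvate and lactate carrier MCT2, had 31.4, 58.4 and 59.8 CPM in TDC, 8.99, 5.50 and 1.13 CPM in DC and no read in T. TDC was at least 895-fold above T (adjusted p = 0.000195) and 9.57-fold above DC, a call (adjusted p = 0.0218) that ended without DC replicate 2 or TDC replicates 2 or 3 (adjusted p 0.0620 to 0.0749). The other lactate carriers differed. Slc16a1, or MCT1, was at 21.4, 20.1 and 19.9 CPM in TDC and 42.0, 30.6 and 17.1 CPM in T, which overlapped, and at 4.82, 3.90 and 0 CPM in DC. Neither contrast of TDC passed (adjusted p = 0.707 and 0.102). That against DC passed without DC replicate 3, with the DESeq2 Wald test or with limma-voom (adjusted p 0.0168 to 0.0302). Slc16a3, or MCT4, the lactate exporter of glycolytic cells, did not exceed 14.0 CPM in any library, and TDC was not called against T (adjusted p = 0.368) or DC (adjusted p = 0.181). Slc16a5, or MCT6, was highest in T, with 48.8, 35.8 and 46.1 CPM in T, 0.538, 0.892 and 1.79 CPM in TDC and no read in DC. T was at least 832-fold above DC (adjusted p = 4.76e-05) and 40.6-fold above TDC (log2 -5.33, SE 0.62, adjusted p = 0.000329), and TDC in turn was at least 20.5-fold above DC (adjusted p = 0.00248). Slc16a14 was highest in DC, with 4.52, 7.94 and 5.66 CPM in DC, 3 reads in TDC and none in T. The fall in TDC, a pooled count ratio of 80.9 (27.4 to 394), ended without DC replicates 1 or 2 or TDC replicates 2 or 3 or with the replicate block (adjusted p 0.0646 to 0.0936).

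Sugar carriers rose in TDC through 3 genes above both controls. Of 9 members, 4 rose and 0 fell against T and 3 rose and 0 fell against DC, of which 3 and 3 held without each library in turn. The share called was 44.4% against T and 33.3% against DC, beside 33% and 14.1% of all genes. Slc45a3 encodes a member of a family of proton-coupled sugar carriers that was first described in the prostate. It was the third most abundant member in TDC by share of the members' reads (4.95%), at 648, 967 and 498 CPM, had 0.727, 0.418 and 0.0596 CPM in DC and no read in T. TDC was at least 12653-fold above T (adjusted p = 1.97e-05) and 1754-fold above DC (log2 10.68, SE 0.80, adjusted p = 0.000212). Slc37a2, which encodes a glucose-6-phosphate and phosphate exchanger of the endoplasmic reticulum found in macrophages, was at 202, 324 and 235 CPM in TDC, 21.9, 10.7 and 17.4 CPM in DC and 2.95, 1.83 and 0.0515 CPM in T. The 3 populations did not overlap, with TDC 157-fold above T (log2 7.32, SE 0.95, adjusted p = 0.000273) and 15.2-fold above DC (log2 3.93, SE 0.80, adjusted p = 0.00907). Its relatives Slc37a1, Slc37a3 and Slc37a4 had no call in any comparison, except Slc37a3 in TDC against T with scaling by library size alone (adjusted p = 0.0411).

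Slc2a8, an intracellular glucose transporter (GLUT8), was at 50.3, 52.6 and 39.9 CPM in TDC, above every library of T (13.2, 10.7 and 10.0 CPM) and DC (14.5, 6.62 and 6.08 CPM), by 4.21-fold (log2 2.07, SE 0.43, adjusted p = 0.00427) and 5.24-fold (log2 2.39, SE 0.44, adjusted p = 0.00513). Slc50a1, which encodes the mammalian SWEET sugar carrier, ran the other way, at 299.6, 365 and 298 CPM in T, 182, 73.9 and 90.5 CPM in TDC and 65.8, 162 and 30.3 CPM in DC. All T libraries were the highest, but the difference of TDC from T did not pass (log2 -1.47, SE 0.56, adjusted p = 0.0665). It passed without DC replicates 2 or 3 or TDC replicate 1, with scaling by library size alone, with no filter, with the DESeq2 Wald test, with limma-voom or in the fit of the 2 groups alone (adjusted p 0.00779 to 0.0338). The call of DC below T (adjusted p = 0.0332) ended without T replicates 1, 2 or 3 or DC replicates 1 or 3 (adjusted p 0.0613 to 0.114). The inositol carrier Slc5a11 was called above T (adjusted p = 0.0368) until libraries were left out: the call ended without T replicates 1 or 2 or TDC replicates 1, 2 or 3, with scaling by library size alone or with the replicate block (adjusted p 0.0563 to 0.105).

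Among nucleoside carriers, 3 of 5 rose in TDC against T, all 3 without each library in turn. They were 60% of the class, beside 33% of all genes called. Against DC 1 rose, 20% of the class beside 14.1% of all genes. That 1 became 2 without T replicate 1, DC replicate 3 or TDC replicate 1, with no filter, with the 10 CPM filter or in the fit of the 2 groups alone, and 4 with the DESeq2 Wald test or limma-voom. Slc29a1, the equilibrative nucleoside transporter ENT1, which lets adenosine and other nucleosides cross the plasma membrane, was at 531, 513 and 359 CPM in TDC, 72.8, 65.0 and 73.3 CPM in DC and 48.1, 40.9 and 36.0 CPM in T. TDC exceeded every control library, by 11.2-fold (log2 3.49, SE 0.30, adjusted p = 1.96e-05) and 6.65-fold (log2 2.73, SE 0.29, adjusted p = 0.000360). Slc29a3, the lysosomal ENT3, was at 64.5, 194 and 129 CPM in TDC, 53.5, 25.1 and 59.0 CPM in DC and 13.2, 16.1 and 13.2 CPM in T. It rose 9.13-fold against T (log2 3.19, SE 0.48, adjusted p = 0.000693), and its difference from DC did not pass (log2 1.49, SE 0.45, adjusted p = 0.0516). It passed without TDC replicate 1, with no filter, with the 10 CPM filter, with the DESeq2 Wald test or with limma-voom (adjusted p 0.0158 to 0.0492). Slc43a3, a carrier of purine bases, had 31.6, 47.7 and 40.3 CPM in TDC and rose 12.3-fold against T (log2 3.61, SE 0.95, adjusted p = 0.0151). Against DC its rise passed only without T replicate 1, with the DESeq2 Wald test, with limma-voom or in the fit of the 2 groups alone (adjusted p 0.00980 to 0.0395). Slc28a2, the sodium-driven purine nucleoside importer CNT2, was highest in T at 126, 53.7 and 132 CPM, lowest in DC at 4.55, 2.23 and 0 CPM and in between at 19.7, 14.6 and 21.5 CPM in TDC. The 3 ranges were separate, DC was 46.0-fold below T (log2 -5.50, SE 1.06, adjusted p = 0.00382), and neither contrast of TDC passed (adjusted p = 0.0618 and 0.0635). In alternative fits TDC passed as lower than T without DC replicate 3, with scaling by library size alone, with the 10 CPM filter, with the DESeq2 Wald test, with limma-voom or in the fit of the 2 groups alone (adjusted p 0.00122 to 0.0494), and as higher than DC without DC replicate 3, with the DESeq2 Wald test or with limma-voom (adjusted p 0.00692 to 0.0325).

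Carriers of zinc, copper, iron and manganese rose against T in 9 of 20 members, with 0 falling, but only 4 of those 9 calls held without each library in turn. The class was called in 45% against T, beside 33% of all genes, and in 15% against DC, near the 14.1% of all genes. The 9 became 4 without T replicate 2 or TDC replicate 2, and 5 without T replicate 1 or with scaling by library size alone. Against DC, 3 rose and 0 fell, and the 3 became 1 without DC replicate 2 or 3, without TDC replicate 2 or 3 or with scaling by library size alone, 8 with the DESeq2 Wald test and 6 with limma-voom. Slc31a1 and Slc31a2, which encode the copper importer CTR1 and its relative CTR2, were among the 4. Slc31a1 was at 64.3, 57.2 and 58.1 CPM in TDC, 49.6, 39.0 and 38.2 CPM in DC and 9.71, 24.3 and 8.45 CPM in T, and TDC rose 4.23-fold against T (log2 2.08, SE 0.43, adjusted p = 0.00440). Slc31a2 was at 114, 88.9 and 95.2 CPM in TDC, 41.1, 34.4 and 22.9 CPM in DC and 14.0, 5.33 and 13.4 CPM in T, without overlap, and rose 9.11-fold against T (log2 3.19, SE 0.44, adjusted p = 0.000390). Its call against DC (adjusted p = 0.0270) ended without DC replicates 2 or 3 or TDC replicates 1, 2 or 3 or with scaling by library size alone (adjusted p 0.0656 to 0.0784).

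For zinc, Slc30a1, the exporter of the plasma membrane, was at 51.2, 91.3 and 76.8 CPM in TDC, 23.0, 20.8 and 25.9 CPM in DC and 10.1, 14.9 and 3.76 CPM in T. TDC rose 7.62-fold against T (log2 2.93, SE 0.50, adjusted p = 0.00147). The call against DC (adjusted p = 0.0430) ended without T replicate 1, DC replicates 1, 2 or 3 or TDC replicates 2 or 3, with scaling by library size alone or with the replicate block (adjusted p 0.0649 to 0.162). Slc39a8, or ZIP8, an importer of zinc, manganese and other metals, was at 17.3, 35.3 and 18.8 CPM in TDC and at most 2.94 CPM in a control library. It rose 48.7-fold against DC (log2 5.52, SE 1.17, adjusted p = 0.0107). Its call against T (adjusted p = 0.0215) ended without T replicates 1 or 2 or TDC replicate 2 (adjusted p 0.0698 to 0.0891). The importer Slc39a14, or ZIP14, overlapped in all 3 populations with no call. Slc11a2 encodes DMT1, the importer of ferrous iron, and did not separate TDC (46.6, 62.1 and 48.1 CPM) from T (59.1, 50.1 and 51.0 CPM; log2 -0.03, SE 0.32, adjusted p = 0.953). Among the 8 genes left out by name, the iron carriers were far from this level in TDC, at mean levels of 13083 CPM for Slc40a1 and 1928 for Slc11a1.

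Vitamin carriers had 2 of 7 members above both controls, and none of their 4 calls held without each library in turn. Calls covered 28.6% of the class in each comparison of TDC, beside 33% of all genes against T and 14.1% against DC. Slc46a1, which encodes the proton-coupled folate transporter and also carries haem, was at 63.8, 42.0 and 26.8 CPM in TDC, 1.88, 0.906 and 0 CPM in DC and 2.88, 3.41 and 0 CPM in T. The TDC libraries lay above all others, yet the call against T (adjusted p = 0.0319) ended without T replicates 1 or 2 or TDC replicates 1, 2 or 3 or with no filter (adjusted p 0.0554 to 0.119), and that against DC (adjusted p = 0.0296) ended without DC replicates 1 or 2 or TDC replicates 1, 2 or 3 or with no filter (adjusted p 0.0540 to 0.121). The ascorbate carrier Slc23a2 was at 67.0, 110.1 and 86.3 CPM in TDC, above T (26.1, 26.0 and 33.1 CPM) and DC (18.3, 18.3 and 45.1 CPM). Its calls (adjusted p = 0.0130 and 0.0226) ended without T replicates 1 or 2 or TDC replicate 2 or with scaling by library size alone (adjusted p 0.0505 to 0.109) and without DC replicates 1 or 2 or TDC replicates 2 or 3, with scaling by library size alone or in the fit of the 2 groups alone (adjusted p 0.0587 to 0.118), respectively. Slc19a1, the reduced folate carrier, overlapped between TDC (17.4, 28.5 and 24.4 CPM) and T (23.1, 36.8 and 24.1 CPM), and neither contrast of TDC passed (adjusted p = 0.859 and 0.0507). That against DC passed without DC replicate 3, with DESeq2 size factors, with the 10 CPM filter, with the DESeq2 Wald test or with limma-voom (adjusted p 0.00205 to 0.0468).

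**Figure D3:**
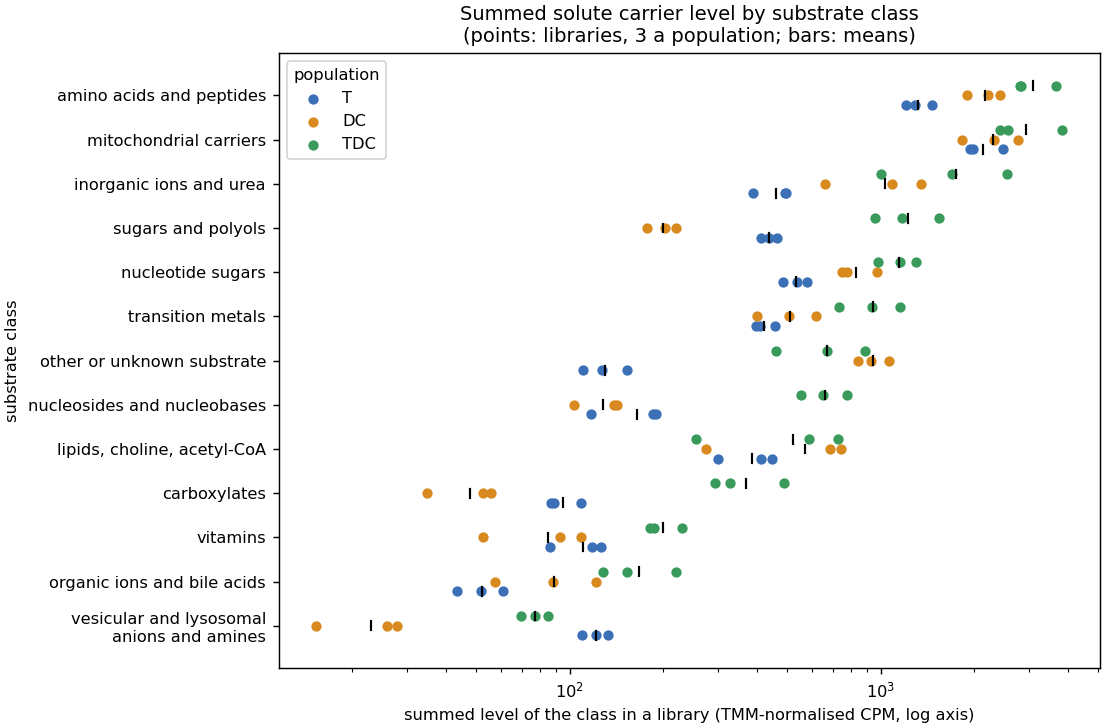
Summed level of each substrate class in every library (TMM-normalised CPM on a log axis; points are libraries, bars are means of 3 per population). The TDC points lie to the right of both controls for amino acids and peptides (2802 to 3659 CPM), sugars and polyols, nucleosides, carboxylates, vitamins, transition metals, nucleotide sugars and organic ions. They overlap at least 1 control for mitochondrial carriers (2417 to 3831 CPM), inorganic ions, lipids and choline and other substrates. For vesicular and lysosomal anions and amines they lie at 69.9 to 85.1 CPM, below T (109 to 133 CPM) and above DC (15.3 to 27.7 CPM).

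Nucleotide sugar carriers, which feed glycosylation in the Golgi and endoplasmic reticulum, rose in 7 of 14 members against T and in 2 against DC, with 0 falling in either. Without each library in turn 5 and 2 of these held, and with scaling by library size alone the 7 became 4. The share called was 50% against T, beside 33% of all genes, and 14.3% against DC, near the 14.1% of all genes. Slc35a1, the CMP-sialic acid carrier, was at 130.04, 82.8 and 89.4 CPM in TDC, 31.0, 16.7 and 18.8 CPM in DC and 17.4, 11.6 and 14.8 CPM in T. TDC was clear of both, by 6.90-fold (log2 2.79, SE 0.38, adjusted p = 0.000335) and 4.55-fold (log2 2.18, SE 0.37, adjusted p = 0.00350). Slc35b2, which carries PAPS, the sulfate donor, was at 258, 201 and 131 CPM in TDC, 81.9, 69.0 and 57.0 CPM in DC and 37.8, 42.9 and 34.7 CPM in T, again without overlap with TDC, by 5.10-fold (log2 2.35, SE 0.33, adjusted p = 0.000412) and 2.83-fold (log2 1.502, SE 0.32, adjusted p = 0.0111). Slc35c2, reported to act on GDP-fucose and Notch fucosylation, was shared by TDC (301, 273 and 243 CPM) and DC (362, 315 and 292 CPM) and lower in T (52.4, 48.2 and 80.7 CPM), by 4.50-fold (log2 2.17, SE 0.30, adjusted p = 0.000376). Slc35b3, a second PAPS carrier, was highest in T at 93.7, 112 and 78.1 CPM, and DC lay 3.30-fold lower (log2 -1.72, SE 0.40, adjusted p = 0.00946), whereas TDC (59.6, 39.4 and 39.0 CPM) was not called (adjusted p = 0.0633). It passed without DC replicates 2 or 3 or TDC replicate 1, with scaling by library size alone, with the 10 CPM filter, with the DESeq2 Wald test, with limma-voom or in the fit of the 2 groups alone (adjusted p 0.00428 to 0.0480).

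Inorganic ion carriers were called in TDC about as often as all genes, 34.6% of them against T and 15.4% against DC beside 33% and 14.1%. In DC against T they were called more often, 46.2% beside 23.8% of all genes. Of 26 members, urea transport included, 8 rose and 1 fell in TDC against T, 11 rose and 1 fell in DC against T, and 2 rose and 2 fell in TDC against DC. Of these calls 5, 0, 7, 1, 2 and 1 held without each library in turn. The 8 became 5 without T replicate 3, without TDC replicate 3 or with no filter, and the 11 became 7 without T replicate 2, without DC replicate 1, with the replicate block or with scaling by library size alone. Against DC, the 2 that rose became 5 with the DESeq2 Wald test and 4 with limma-voom, and the 2 that fell became 4 with the DESeq2 Wald test and 1 with the replicate block or without T replicate 1, any DC library or any TDC library. Slc8a1, the sodium and calcium exchanger NCX1, had no read in T, 35.2, 24.5 and 41.3 CPM in DC and 18.7, 42.2 and 45.1 CPM in TDC. TDC and DC overlapped, and they were at least 634-fold (adjusted p = 3.28e-05) and 604-fold (adjusted p = 4.09e-05) above T. Slc8b1, the mitochondrial sodium and calcium exchanger, was at 238, 423 and 368 CPM in TDC, 156, 99.6 and 305 CPM in DC and 5.84, 6.22 and 18.2 CPM in T. TDC was 34.0-fold above T (log2 5.08, SE 0.63, adjusted p = 0.000191) and did not pass against DC (log2 0.88, SE 0.53, adjusted p = 0.317).

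Slc12a2, the sodium, potassium and chloride importer NKCC1, was at 123, 549 and 269 CPM in TDC, 163, 49.7 and 82.0 CPM in DC and 3.80, 3.65 and 4.33 CPM in T. Its libraries overlapped between TDC and DC, with TDC 79.9-fold above T (log2 6.32, SE 0.69, adjusted p = 9.07e-05). Against DC it was called higher only without DC replicate 1 or TDC replicate 1, with no filter or with the DESeq2 Wald test (adjusted p 0.0222 to 0.0456). Slc12a7, the potassium and chloride exporter KCC4, was instead low in DC, at 11.6, 2.72 and 14.7 CPM, with 76.6, 406 and 123 CPM in TDC and 93.3, 79.1 and 104 CPM in T. TDC was 20.8-fold above DC (log2 4.38, SE 0.76, adjusted p = 0.00410) and overlapped T. Proton exchangers of the SLC9 family separated the populations in opposite directions. Slc9a9, or NHE9, of recycling endosomes, was at 216, 399 and 291 CPM in TDC, above all libraries of DC (92.9, 101 and 74.5 CPM) and T (69.4, 42.4 and 56.7 CPM), by 3.38-fold (log2 1.76, SE 0.33, adjusted p = 0.00581) and 5.38-fold (log2 2.43, SE 0.34, adjusted p = 0.000381). Slc9a7, or NHE7, of the Golgi, was highest in DC at 44.1, 25.6 and 64.7 CPM, with 2.154, 1.73 and 6.86 CPM in TDC and 4.78, 7.31 and 7.52 CPM in T. TDC was 12.5-fold below DC (log2 -3.64, SE 0.64, adjusted p = 0.00431) and overlapped T. The phosphate importer Slc20a2 rose 6.60-fold in TDC against T (log2 2.72, SE 0.46, adjusted p = 0.00143), and Slc20a1 had no call in any comparison. The single fall against T, Slc26a10 (adjusted p = 0.0251), ended without T replicates 1 or 2 or TDC replicates 2 or 3 (adjusted p 0.0603 to 0.0970).

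**Figure D4:**
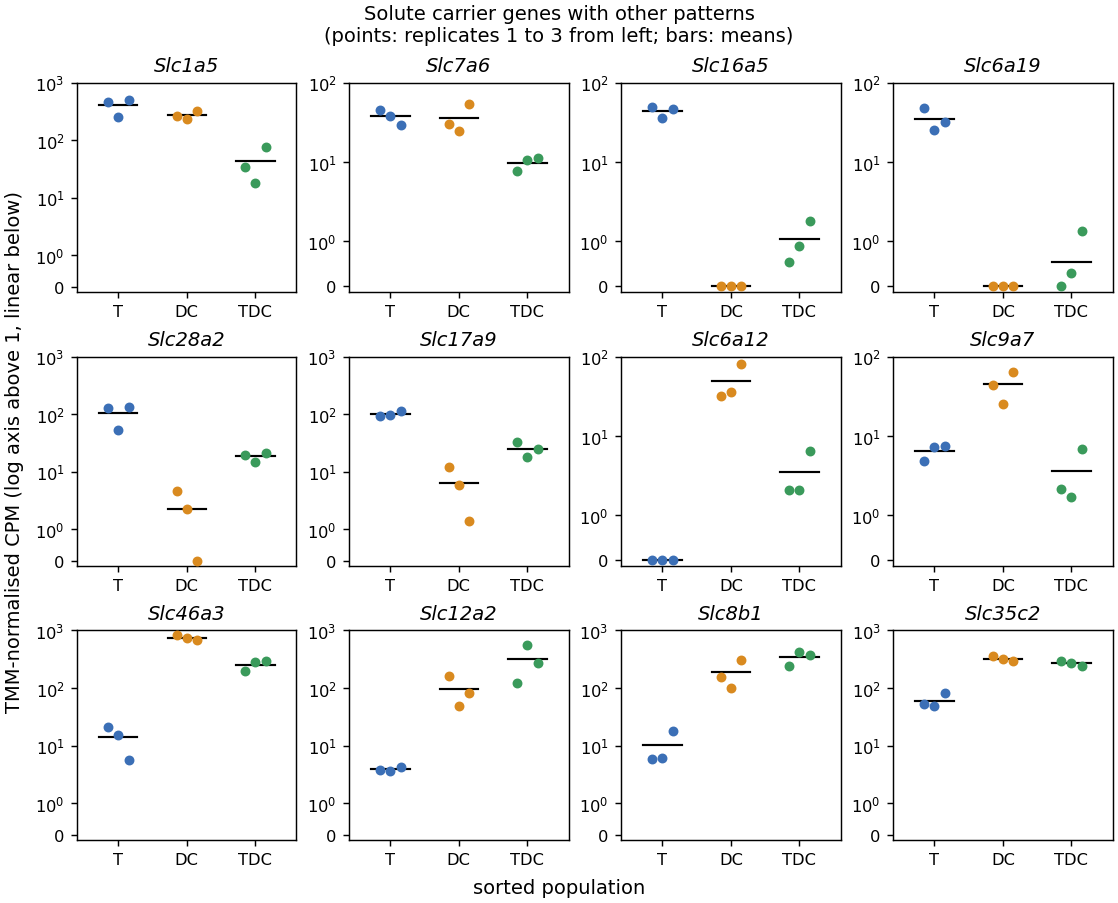
Level of 12 solute carrier genes with other patterns, drawn as in the plot of genes above both controls. Slc1a5 and Slc7a6 lie lowest in TDC, Slc16a5, Slc6a19, Slc28a2 and Slc17a9 highest in T, Slc6a12, Slc9a7 and Slc46a3 highest in DC, and Slc12a2, Slc8b1 and Slc35c2 lowest in T, where Slc8b1 held 5.84 to 18.2 CPM against at least 99.6 in DC and TDC.

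Of 39 mitochondrial carriers, 26 had no call in any comparison, a count without the share of all genes beside it. In TDC against T 7 rose and 2 fell, against DC 4 rose and 0 fell, and in DC against T 5 rose and 0 fell. Calls in either direction covered 23.1%, 10.3% and 12.8% of the class in these comparisons, beside 33%, 14.1% and 23.8% of all genes. The shares called higher lay under that of all genes for TDC against T and near it for the other 2. Of the 7, 2, 4 and 5 calls, 5, 1, 1 and 3 held without each library in turn. The 4 against DC became 2 without T replicate 3, DC replicate 1 or DC replicate 2 or with scaling by library size alone, and 1 without DC replicate 3 or any TDC library or with the replicate block. The 7 became 11 without DC replicate 3, 12 in the fit of the 2 groups alone and 4 with scaling by library size alone, where the falls became 6. Without any 1 of the T libraries or DC replicate 1, with no filter, with the replicate block or with scaling by library size alone the 5 of DC against T became 3, and the 2 falls became 1 without T replicate 1 or 3 or any TDC library, with no filter, with the replicate block or with the 10 CPM filter. Slc25a33, the pyrimidine nucleotide carrier PNC1, was above both controls in each fit that left out a library, at 76.3, 45.1 and 44.6 CPM in TDC, 5.97, 7.04 and 5.31 CPM in DC and 5.70, 13.6 and 13.2 CPM in T. It lay above every control library, by 9.06-fold against DC (log2 3.18, SE 0.46, adjusted p = 0.00165) and 5.10-fold against T (log2 2.35, SE 0.45, adjusted p = 0.00264). Slc25a26, the S-adenosylmethionine carrier, rose 5.31-fold against T (log2 2.41, SE 0.52, adjusted p = 0.00565). Against DC its call ended without T replicate 3, DC replicates 1, 2 or 3 or TDC replicates 1, 2 or 3, with scaling by library size alone or with the replicate block (adjusted p 0.0581 to 0.136).

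The dicarboxylate carrier Slc25a10 and the orphan carrier Slc25a45 were lower in T than in both others. Slc25a10 was at 37.2, 49.0 and 64.8 CPM in TDC, 47.8, 40.2 and 23.4 CPM in DC and 7.32, 9.83 and 8.19 CPM in T, 5.96-fold below TDC (log2 2.57, SE 0.40, adjusted p = 0.000746). Slc25a45 was at 203, 177 and 182 CPM in TDC, 142, 86.0 and 114 CPM in DC and 26.0, 24.1 and 48.0 CPM in T, 5.74-fold below TDC (log2 2.52, SE 0.36, adjusted p = 0.000439). The citrate carrier Slc25a1 rose 2.64-fold in TDC against T (log2 1.40, SE 0.33, adjusted p = 0.00812). That call ended with scaling by library size alone (adjusted p = 0.0627). The carriers linked to iron and haem in mitochondria did not move as a group: Slc25a39 was called higher against T (adjusted p = 0.0179). That call ended without T replicates 1 or 3 or with scaling by library size alone (adjusted p 0.0703 to 0.0731), whereas Slc25a37, Slc25a28 and Slc25a38 had no call, except Slc25a38 in TDC against DC with scaling by library size alone (adjusted p = 0.0448). The most abundant, the ADP and ATP carrier Slc25a5, held 405 to 1370 CPM over the 9 libraries with all populations overlapping, and its reads may be shared with processed pseudogenes. Slc25a4, a second ADP and ATP carrier, and the phosphate carrier Slc25a3 overlapped in the same way. Slc25a27 fell, with 2 reads in TDC and 5.28, 8.64 and 0.515 CPM in T, a pooled count ratio of 103 (28.1 to 851, adjusted p = 0.00956).

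Organic ion and bile acid carriers rose in 4 of 9 members against T, of which 3 held without each library in turn, and the 4 became 2 with the 10 CPM filter. Calls against T covered 44.4% of the class, beside 33% of all genes. The carnitine carrier gene Slc22a21 was at 6.10, 4.24 and 4.40 CPM in TDC, 10.2, 9.89 and 21.6 CPM in DC and at most 0.352 CPM in T, 32.7-fold below TDC (log2 5.05, SE 1.02, adjusted p = 0.00376). Slc22a23, an orphan, was at 19.1, 92.3 and 24.6 CPM in TDC and 7.08, 8.08 and 10.9 CPM in DC, and TDC was 551-fold above T (log2 8.87, SE 1.15, adjusted p = 0.000259). Slc22a18 had no read in T, and TDC (7.81, 6.86 and 2.68 CPM) and DC (4.55, 2.09 and 7.75 CPM) were at least 104-fold (adjusted p = 0.00106) and 86.2-fold (adjusted p = 0.00149) above it. Slc22a17, a receptor for lipocalin-2, was at 38.4, 18.9 and 17.9 CPM in TDC, above T (4.15, 5.09 and 1.08 CPM) and DC (1.88, 1.81 and 6.32 CPM). Both of its calls were lost, against T without TDC replicate 1 (adjusted p = 0.0536) and against DC without DC replicates 1 or 2 or TDC replicates 1, 2 or 3, with scaling by library size alone or with the replicate block (adjusted p 0.0592 to 0.102).

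Among carriers of lipids, choline and acetyl-CoA, 2 of 5 rose against T, both without each library in turn. That is 40% of the class, beside 33% of all genes called. The acetyl-CoA carrier Slc33a1 was at 15.2, 26.0 and 24.4 CPM in TDC and 25.1, 12.2 and 22.3 CPM in DC, which overlapped, and at 5.20, 2.72 and 2.88 CPM in T, 6.07-fold below TDC (log2 2.603, SE 0.50, adjusted p = 0.00274). The fatty acid transport protein gene Slc27a1 rose 4.37-fold (log2 2.13, SE 0.48, adjusted p = 0.00660). Slc44a1, a choline transporter, was at 104, 31.0 and 91.8 CPM in DC, 2.33, 14.4 and 17.4 CPM in TDC and 7.74, 8.05 and 3.30 CPM in T. DC was the highest, 11.9-fold above T (log2 3.57, SE 0.76, adjusted p = 0.00651), and its call above TDC ended without DC replicates 1 or 3 or TDC replicates 1, 2 or 3, in the fit of the 2 groups alone or with the replicate block (adjusted p 0.05002 to 0.0964). Slc44a2 was among the 6 most abundant members of each population and had no call.

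Vesicular and lysosomal carriers numbered 3. Slc17a5, or sialin, the lysosomal exporter of sialic acid, was at 36.5, 55.0 and 51.7 CPM in TDC, above T (10.97, 5.38 and 10.4 CPM) and DC (10.8, 3.62 and 17.1 CPM). It rose 5.36-fold against T (log2 2.42, SE 0.57, adjusted p = 0.00821), and its call against DC (adjusted p = 0.0261) ended without DC replicates 1 or 2 or TDC replicates 2 or 3 or with scaling by library size alone (adjusted p 0.0529 to 0.108). Slc17a9, which loads ATP into vesicles, was highest in T at 91.2, 97.8 and 114 CPM, with 32.9, 17.8 and 24.9 CPM in TDC and 11.9, 5.92 and 1.37 CPM in DC. The 3 ranges were separate, DC was 15.8-fold below T (log2 -3.97, SE 0.66, adjusted p = 0.00156), and the call of TDC below T (adjusted p = 0.0278) ended without T replicates 1, 2 or 3 or TDC replicates 2 or 3 (adjusted p 0.0572 to 0.0920).

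Members with other or unknown substrates held the most abundant solute carrier of DC. Slc46a3, a lysosomal carrier known for releasing products of antibody-drug conjugates, was at 839.8, 747 and 674 CPM in DC, 196, 282 and 292 CPM in TDC and 21.5, 15.2 and 5.72 CPM in T. The populations were fully separate, with TDC 18.1-fold above T (log2 4.18, SE 0.48, adjusted p = 0.000123) and 2.94-fold below DC (adjusted p = 0.0362). That call ended without T replicate 2, DC replicates 1, 2 or 3 or TDC replicates 1, 2 or 3 or with the replicate block (adjusted p 0.0537 to 0.102). Slc35f6 was at 96.2, 198 and 118 CPM in TDC, 20.7, 6.97 and 9.66 CPM in DC and 7.32, 4.20 and 7.06 CPM in T. TDC lay above every control library, by 22.2-fold (log2 4.47, SE 0.53, adjusted p = 0.000156) and 11.1-fold (log2 3.46, SE 0.51, adjusted p = 0.00176). Slc35f5 had 1 read in T, 22.2, 10.5 and 16.4 CPM in DC and 56.4, 85.5 and 72.8 CPM in TDC. The pooled count ratio of TDC to T was 3980 (714 to 157244, adjusted p = 6.12e-06), and the 4.38-fold rise against DC (adjusted p = 0.0121) ended without TDC replicate 2 (adjusted p = 0.0682). Slc45a4 was at 48.1, 202 and 90.6 CPM in TDC, 24.4, 9.61 and 21.3 CPM in DC and 4.78, 5.43 and 2.94 CPM in T. It rose 25.9-fold against T (log2 4.70, SE 0.63, adjusted p = 0.000328), and its call against DC (adjusted p = 0.0124) ended without TDC replicate 2 (adjusted p = 0.0699).

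The 6 genes that are no transporters gave 1 higher and 3 lower calls in TDC against T, 66.7% of them beside 33% of all genes. Slc9a3r1, which encodes the scaffold protein EBP50 beneath the plasma membrane, was highest in T at 284, 345 and 357 CPM, with 157, 166 and 134 CPM in TDC and 165, 155 and 100.3 CPM in DC. DC lay 2.34-fold below T (log2 -1.23, SE 0.29, adjusted p = 0.0107) and TDC 2.16-fold below (log2 -1.11, SE 0.29, adjusted p = 0.0135), the latter call ending without T replicate 3 (adjusted p = 0.0515). Its relative Slc9a3r2 ran in reverse, with no read in T, 4.36, 8.99 and 0 CPM in DC and 17.8, 22.9 and 22.9 CPM in TDC, at least 381-fold above T (adjusted p = 0.00524). Slc36a3os, a transcript named for the strand opposite Slc36a3, was at 26.4, 58.1 and 15.9 CPM in DC and at most 3.66 CPM elsewhere (log2 -3.98, SE 0.79, adjusted p = 0.00807 in TDC against DC), and without a known strand setting its reads and those of a partner gene cannot be told apart.

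Measured by share of the members' own reads, the 6 most abundant genes took 36.1% in T, 33.3% in DC and 26.6% in TDC on average. Slc25a5 (10.2%), Slc1a5 (5.96%), Slc44a2 (5.35%) and Slc3a2 (5.05%) led in T, and Slc46a3 (8.19%), Slc3a2 (6.92%) and Slc25a5 (6.58%) in DC. In TDC they were Slc25a5 (6.67%), Slc3a2 (5.45%), Slc45a3 (4.95%), Slc29a1 (3.35%), Slc44a2 (3.11%) and Slc7a7 (3.08%). Slc25a5, Slc3a2 and Slc44a2 were thus among the top 6 in all 3 populations, and Slc45a3, Slc29a1 and Slc7a7 in TDC alone.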

How the data were processed

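RNA from 3 sorted spleen populations, with 3 libraries each, was sequenced as stranded 3' tag libraries (Lexogen QuantSeq), per the labels' protocols. The authors deposited 1 table of raw read counts per gene, made, per the submitters' processing notes, with STAR and featureCounts after FastQC, MultiQC and Trimmomatic, without naming versions or the strand setting. Those notes name the build hg38 although the samples are mouse, so no coordinates were taken from the counts. The members, gene lists and tests were chosen with earlier results of these data known, substrate classes came from general knowledge, and Slc36a3os was moved to the class of genes that are no transporters after its values were seen.

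Counts were fitted for all groups together with edgeR 4.0.16 (R 4.3.3, limma 3.58.1; quasi-likelihood test, robust, TMM scaling, 6 residual degrees of freedom) after filterByExpr (at least 10 reads, 15 in all), and p-values were adjusted over 14708 genes by Benjamini-Hochberg at 0.05. The genes named by rule were, in each comparison and direction, the 6 called members with the largest fold among those without overlap and with at least 10 CPM in the higher group, for each comparison of TDC the 2 members of each class with the smallest adjusted p, and a fixed list. Others are named to account for their class and were chosen after their values were seen. Alternatives were DESeq2 1.42.0, limma-voom, other scalings and filters, the 2 compared groups alone, a block for the replicate number, and fits without each library in turn. Depth was 10986544 to 18071425 reads in T, 14973484 to 25676640 in DC and 14594850 to 22677130 in TDC, and 1 read was worth 0.0383 to 0.0897 CPM. Same-numbered libraries share a prefix in the sample descriptions and the number of pooled mice, which may mark a shared preparation, while their deviations from the group means correlated by -0.384 to 0.224 over genes. The main fit has no block, and fits with it are given for many of the calls they end. Simulated data had the TMM-scaled depths of all 9 libraries and each gene's mean over them, with genes changed only in the first-named population. For TDC against T (14308 genes), the test recovered 1 of 67 genes changed 2-fold, 14 of 67 changed 4-fold and 30 of 66 changed 8-fold. For TDC against DC (14217 genes) it recovered 0, 3 and 17, and for DC against T (14233 genes) 0, 10 and 40. Calls among unchanged genes numbered 3, 1 and 5. No other genes were changed in the simulation, whereas 33%, 14.1% and 23.8% of genes were called in these comparisons of the data. An adjusted p is harder to pass when few genes differ, so the simulation does not give the share of differences missed in the data. A missing call does not show that a difference is absent. Promoter windows are from RefSeq (GRCm38.p6). Python 3.11.15, pandas 2.3.3, SciPy 1.17.1 and matplotlib 3.10.9 were used for the remaining steps. The values of 1 member are not reported here.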

Additional observations from a re-analysis of the deposited data

How the results depend on the processing

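No called value of a named gene changed direction in any alternative, and 83 of 4159 values of named genes changed sign where neither fit passed the threshold. Of 138 calls of named genes, 96 were kept in every alternative run. Leaving out each library in turn gave 59 to 84 members higher and 9 to 19 lower in TDC against T, 23 to 41 higher and 5 to 12 lower in TDC against DC, and 33 to 56 higher and 9 to 13 lower in DC against T. Those above both controls numbered 19 to 33 and those below both 2 to 3. With scaling by library size alone, 23 members were lower in TDC than in T and 5 were below both controls. The DESeq2 Wald test gave 20 lower in TDC against T, 61 higher and 20 lower in TDC against DC, 22 lower in DC against T and 6 below both controls. With limma-voom 20 were lower in DC against T. With the replicate number as a block, 6 were lower in TDC against DC, and the counts were 70 higher and 11 lower in TDC against T, 32 higher against DC, 39 higher and 12 lower in DC against T, 30 above both controls and 2 below. The causes were not tested. Same-numbered libraries share a prefix in the sample descriptions, without a stated meaning. Their deviations from the group means correlated by 0.0481, 0.224 and 0.116 between T and DC. Same-numbered pairs with TDC correlated by -0.384 to 0.0371. For pairs of different number the correlations were -0.197 to 0.363. Depth limits the genes with few reads in a group, for which only bounds or wide ratios are given.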
